A study of Mus musculus with 3 samples.

Results

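Fragments of Y RNA, 7SK, signal recognition particle (SRP) RNA and other structured non-coding RNAs were counted in small RNA libraries of the HL-1 line, contracting cardiomyocytes derived from a mouse atrial tumour. A fragment was included if, after removal of the 3′ adapter, the insert had 18 to 25 nt and matched a gene of the class misc_RNA in GENCODE vM1 exactly and in sense, and matched no rRNA, snoRNA or snRNA gene. This gave 1777 distinct inserts with 3618 reads of 7748874 inserts of that length in the library labelled siSrf1 and 5488 of 7013026 in the library labelled siSrf2. The class held 487 genes, of which 331 were copies related to 7SK. The study transfected HL-1 cells with siRNA against Srf (9 µl of a 20 µM stock per well) or with an unspecific siRNA, and took total RNA 48 h later. The remaining sample, with siNon in its title, was not analysed here. The siRNA entries go against the titles (Srf si2 under the title siSrf1, siNon under the title siSrf2). Which library is the control therefore cannot be told, and none is used as a control here. All directions below refer to the library labels and to no treatment. There was 1 library per label, and so no test between groups was possible. All intervals are exact 95% intervals of counting error alone, and without molecular identifiers reads are not independent molecules.

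Y RNAs are short RNAs made by RNA polymerase III that fold into a stem formed by both ends and a loop, and bind the proteins Ro60 and La. Mouse cells have Y1 and Y3. They are known to be cut into short pieces from either end of the stem, most of all in dying or stressed cells and in body fluids. 7SK RNA holds the transcription elongation factor P-TEFb in an inactive complex, and SRP RNA (7SL) is the scaffold of the particle that targets secreted proteins to the endoplasmic reticulum. Both are longer than Y RNAs, and both have given rise to many genomic copies.

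The sequences of both Y genes are given first because nearly all Y reads came from the ends of the stem. Both lie on chromosome 6 of NCBIM37, between Ezh2 and Pdia4. Rny1 is at chr6:47738068-47738179 on the minus strand (112 nt), and Rny3 is at chr6:47731623-47731724 on the plus strand (102 nt). Capitals mark the most read insert on the 5′ side and on the 3′ side of each gene, by the reads of both libraries together. For Rny1 1 to 20 these were 143 and 125 reads, while in siSrf2 the insert 1 to 21 had more (100 and 135). The 3′ insert of Rny3, 74 to 96, had only 1 read in siSrf1 and 24 in siSrf2.
Rny1: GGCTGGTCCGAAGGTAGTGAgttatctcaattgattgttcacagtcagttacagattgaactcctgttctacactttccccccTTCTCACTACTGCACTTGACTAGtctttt
Rny3: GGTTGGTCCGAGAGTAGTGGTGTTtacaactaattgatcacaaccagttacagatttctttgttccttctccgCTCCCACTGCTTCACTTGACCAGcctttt
The first 24 nt of the genes are shown next because they hold the most read insert of the set and can be told apart by sequence. Capitals mark the 7 bases that differ, and the other 17 are the same.
Rny1 1 to 24: ggCtggtccgaAGgtagtgAGTtA
Rny3 1 to 24: ggTtggtccgaGAgtagtgGTGtT
Counted from 1 at the 5′ end, with the base of Rny1 first and that of Rny3 last, the differences are C3T, A12G, G13A, A20G, G21T, T22G and A24T. Reads of the 5′ ends of Y1 and Y3 could therefore not be exchanged for each other by an exact match.

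Y3 fragments showed the widest gap between the libraries among the RNA types with over 100 reads. Levels are given in RPM, the reads per 1000000 inserts of 18 to 25 nt. Y3 had 195 reads (25.2 RPM) in siSrf1 and 1089 (155 RPM) in siSrf2. That was 6.17-fold more in siSrf2 (5.29 to 7.22). Y1 had 982 reads (127 RPM) in siSrf1 and 1361 (194 RPM) in siSrf2, 1.53-fold more (1.41 to 1.66). Of these, 979 and 1360 matched Rny1 itself and the rest only other Y1 copies. A further 239 and 278 reads matched Rny1 and a gene of another type, and with them Rny1 held 1218 and 1638 reads. The ratio of Y3 to Rny1 reads within a library does not depend on how the libraries are scaled. It was 0.160 in siSrf1 and 0.665 in siSrf2, and the odds ratio was 4.15 (3.50 to 4.95). Other Y copies had 7 reads in each library.

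**Figure D1:**
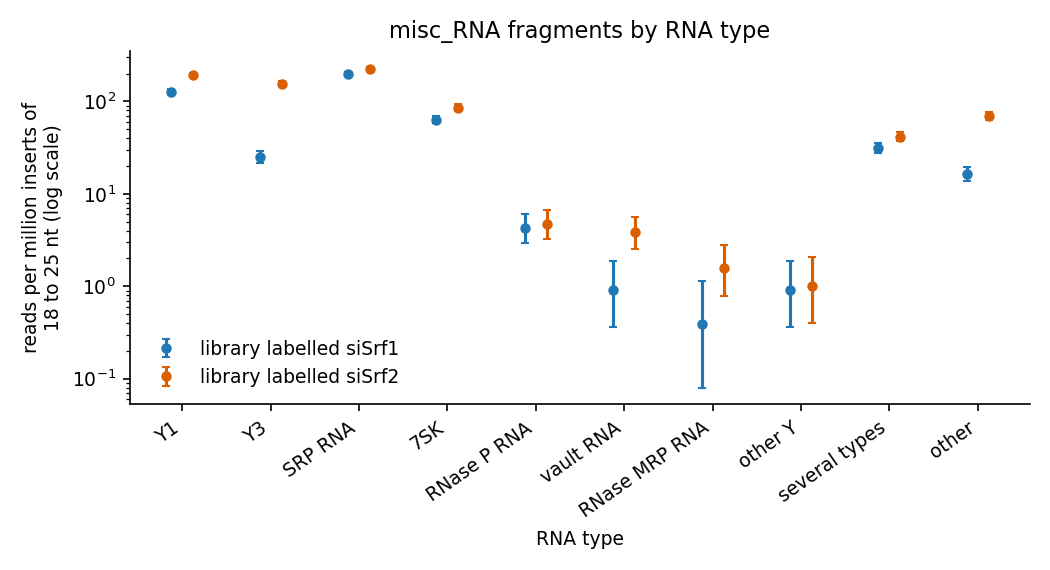
RPM, per inserts of 18 to 25 nt (log axis), for each RNA type, with 1 point per library and exact Poisson 95% intervals. Y3 lies at 25.2 in siSrf1 and 155 in siSrf2, while the points of SRP RNA lie at 198 and 225.

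Scaling bears on the size of these gaps. Factors computed over miRNA hairpins by TMM moved every log2 ratio (siSrf1 minus siSrf2) by 0.44, and those of DESeq2 by 0.43. With TMM, Y3 was 4.55-fold higher in siSrf2 (3.90 to 5.33), Y1 was 1.13-fold higher and SRP RNA turned to 0.840-fold, that is, lower in siSrf2. All misc_RNA fragments together were 1.68-fold higher in siSrf2 (1.61 to 1.75) in RPM and 1.24-fold higher with TMM. An excess in siSrf2 was not particular to this class. In RPM the fold was 4.30 for mitochondrial tRNA, 2.26 for snoRNA, 1.36 for snRNA and 1.15 for rRNA, while miRNA stood at 0.943.

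Rny1 was read from its 5′ end and from near its 3′ end, and hardly from the loop. Of its reads, 590 in siSrf1 (48.4%, 45.6 to 51.3) and 773 in siSrf2 (47.2%, 44.7 to 49.6) began at position 1. A further 431 and 640 began at position 84, and 135 and 158 at position 83. Among inserts of 18 to 25 nt the most frequent last base was position 106, with 228 and 402 reads, which is 6 nt before the annotated end. Only 49 reads in siSrf1 (4.02%) and 47 in siSrf2 (2.87%) ended within the last 5 nt, the zone set beforehand as the 3′ end. The length limit bears on this share, since an insert from position 84 enters that zone only at 25 nt. Inserts from 84 to 110 (36 and 223 reads) and from 84 to 109 (49 and 180 reads) ended in the zone but were too long to be counted. Split at the midpoint of the gene, a split chosen after the values were seen, the 3′ side had 618 and 857 reads and the 5′ side had 600 and 781. The 3′ to 5′ ratio was 1.03 in siSrf1 and 1.10 in siSrf2, with an odds ratio of 1.07 (0.916 to 1.24), so among inserts of 18 to 25 nt the balance of the ends did not differ beyond counting error. Inserts of 26 to 28 nt, outside the lengths counted, had 94 and 429 reads on the 3′ side, 5.04-fold more in siSrf2 (4.03 to 6.37), and 10 and 11 on the 5′ side (1.21-fold, 0.469 to 3.19).

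Rny3 was read almost only from its 5′ end. Position 1 was the start of 166 reads in siSrf1 (85.1%, 79.3 to 89.8) and of 989 in siSrf2 (90.8%, 88.9 to 92.5). The insert from 1 to 24 alone had 91 reads in siSrf1 and 599 in siSrf2, 7.27-fold more (5.83 to 9.17). The 3′ side of Rny3 had 17 and 56 reads, of which 6 and 36 began at position 74. Both libraries thus had an excess of 5′ over 3′ fragments at Rny3 that Rny1 lacked.

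**Figure D2:**
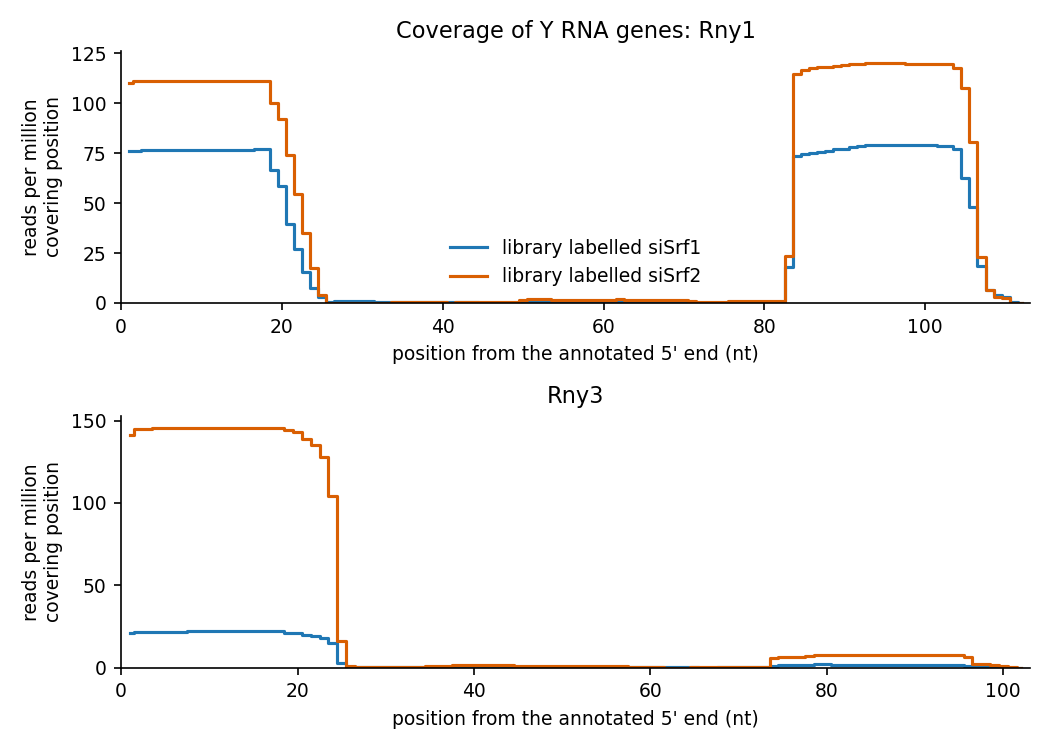
Reads, in RPM, that cover each position of Rny1 and Rny3, counted from the annotated 5′ end, 1 line per library. Rny1 has a block at its 5′ end and one near its 3′ end, up to 120 RPM in siSrf2, and Rny3 has a block at its 5′ end, up to 22.1 in siSrf1 and 146 in siSrf2.

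The predicted fold placed both blocks in the same stem. In the minimum free energy structure of Rny1 (-34.3 kcal/mol), 16 of the 20 bases of the 5′ insert were paired, 14 of them with bases of the 3′ insert shown above. In that of Rny3 (-27.1 kcal/mol), 21 of 24 were paired, 18 of them with the 3′ insert, which had 1 and 24 reads. Between position 84 to 106 of Rny1 and position 74 to 96 of Rny3, 18 of 23 bases were the same. The fold is a prediction from the sequence alone, and no structure was measured.

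Length set the fragments apart. The 5′ fragments of Y3 were mostly 24 nt long, with 91 reads in siSrf1 and 603 in siSrf2. Those of Y1 were spread from 18 to 24 nt, with a median of 21 nt in both libraries. The 3′ fragments of Y1 peaked at 23 nt, with 213 and 344 reads. Rn7sk and SRP RNA fragments were most frequent at 18 nt, the shortest length counted, with 100 and 82 reads for Rn7sk and 353 and 398 for Rn7s1. Inserts that matched a miRNA hairpin were most frequent at 22 nt.

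**Figure D3:**
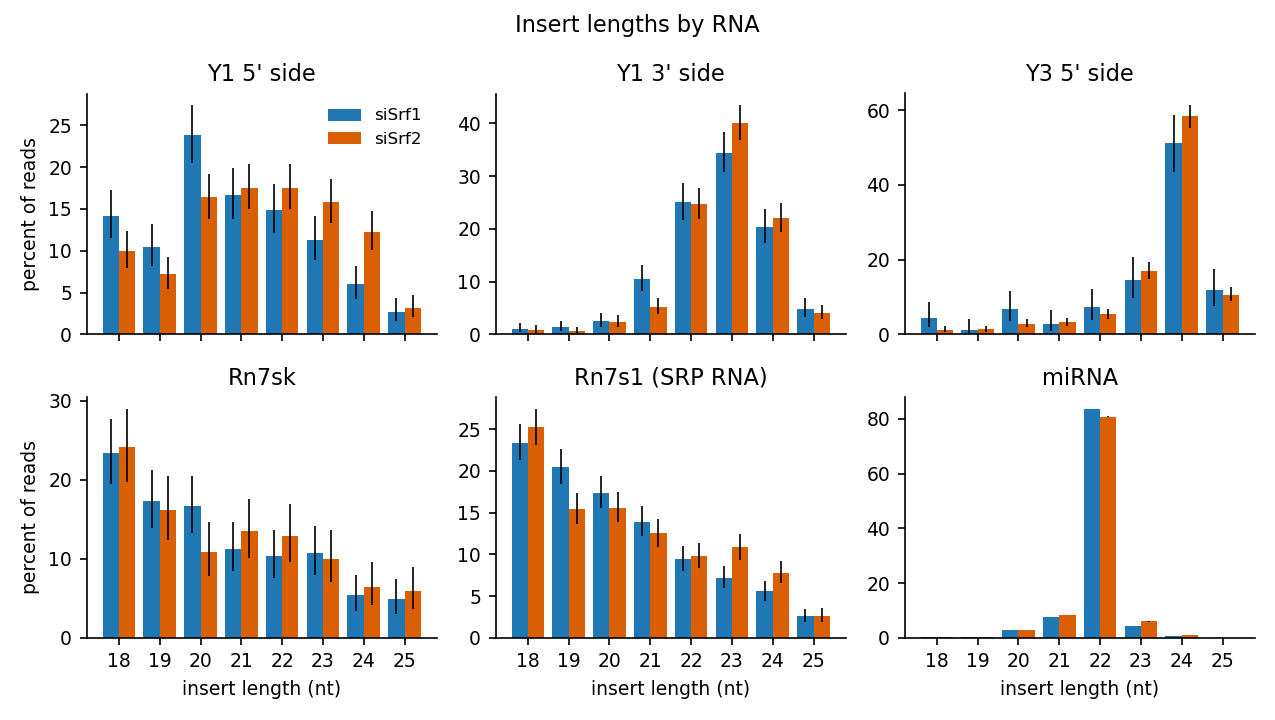
Percent of reads by insert length (nt) for fragments of Rny1 by side, the 5′ side of Rny3, Rn7sk, Rn7s1 and miRNA hairpins, bars per library with exact 95% intervals. Y3 5′ fragments stand at 24 nt, Y1 3′ fragments at 23 nt, and Rn7sk and Rn7s1 fall off from 18 nt.

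For Y1 5′, Y3 5′ and SRP RNA fragments, and for miRNA and rRNA, the fold of siSrf2 over siSrf1 was higher at 23 to 25 nt than at 18 to 20 nt. For the 5′ side of Y1, inserts of 18 to 20 nt had 291 and 262 reads, 0.995-fold in siSrf2 over siSrf1 (0.839 to 1.18). Those of 23 to 25 nt had 120 and 245 reads, 2.26-fold (1.81 to 2.83). For miRNA the same lengths gave 0.954-fold and 1.39-fold, for rRNA 0.974-fold and 1.79-fold, and for SRP RNA, counted on Rn7s1, 1.06-fold and 1.60-fold. The 3′ side of Y1 went from 1.22-fold to 1.70-fold, with overlapping intervals. Inserts that matched no annotated small RNA gene went from 1.13-fold to 1.39-fold. No rise was seen for snRNA (1.47-fold to 1.19-fold), snoRNA (3.04-fold to 2.92-fold) and the 7SK type (1.52-fold to 0.927-fold). Inserts that matched Rn7sk itself went from 0.785-fold to 0.933-fold, with an odds ratio of 1.19 (0.814 to 1.74). The part of insert length in the Y results was not tested beyond matching by length. At 18 to 20 nt, Y3 5′ fragments had 22 and 56 reads, 2.81-fold more in siSrf2 (1.69 to 4.84), and at 23 to 25 nt 138 and 889, 7.12-fold more (5.94 to 8.58). At 24 nt, the length with the most Y3 reads, the fold was 7.32 for Y3 5′ fragments (5.86 to 9.23), 2.95 for Y1 5′ fragments (1.99 to 4.45), 1.69 for miRNA, 1.96 for rRNA and 5.37 for snoRNA. Among 24 nt inserts the odds of Y3 against Y1 5′ fragments were 2.48-fold higher in siSrf2 (1.55 to 3.93), and among those of 18 to 20 nt 2.82-fold higher (1.64 to 4.997).

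**Figure D4:**
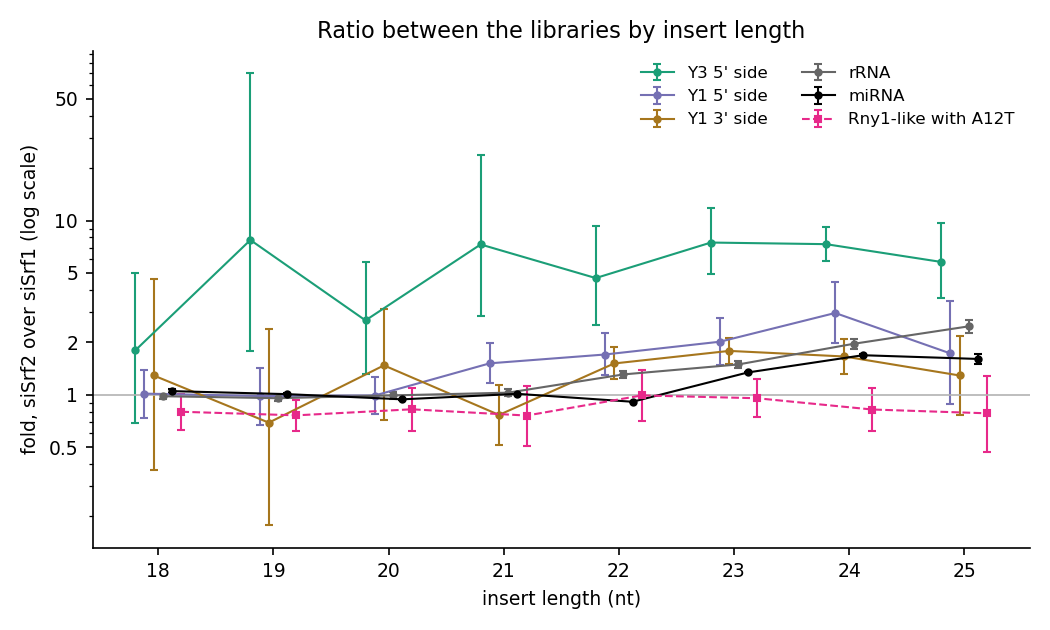
Fold of siSrf2 over siSrf1 in RPM (log axis) against insert length (nt), with exact 95% intervals, for Y3 and Y1 fragments, rRNA, miRNA and Rny1-like inserts with A12T. At 24 nt Y3 5′ fragments reach 7.32 and Y1 5′ fragments 2.95, while the A12T inserts lie at 0.822.

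Inserts of the 7SK type are given apart by whether they matched Rn7sk itself. Those that matched Rn7sk (chr9:78023110-78023440, minus strand, 331 nt) had 427 reads in siSrf1 (55.1 RPM) and 340 in siSrf2 (48.5 RPM). The fold was 0.880 (0.761 to 1.02), an interval that spans 1. With TMM it was 0.649 (0.561 to 0.750), and for the 324 and 247 reads whose genome matches all lay in misc_RNA genes 0.842 (0.711 to 0.997), so whether Rn7sk differed beyond counting error depends on the scaling and on the inserts counted. Inserts that matched only other 7SK copies had 63 and 262 reads, 4.60-fold more in siSrf2 (3.48 to 6.15). Those had a median of 7455 exact matches in the genome, and 43 and 207 of their reads also matched a gene annotated as a miRNA hairpin, so they cannot be assigned to 7SK. The 1.36-fold excess of the 7SK type in siSrf2 (490 and 602 reads) is the sum of these parts. On Rn7sk the reads were spread over 159 start positions, covered 94.6% of the gene, and no start held over 5% of the reads: the most used, position 251, had 17 and 15 reads. At its first 3 nt 2 reads and 0 reads began.

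Among types without the inserts shared between types, SRP RNA had the most reads, 1532 in siSrf1 (198 RPM) and 1580 in siSrf2 (225 RPM), 1.14-fold more in siSrf2 (1.06 to 1.22) but 0.840-fold with TMM. Rn7s1 (chr12:70260282-70260578, plus strand) and Rn7s2 (chr12:70462172-70462468, minus strand) have the same 297 nt, so their reads could not be told apart and were placed on Rn7s1. Reads covered the whole gene from 216 start positions, and 51.6% in siSrf1 and 41.2% in siSrf2 began between positions 181 and 240. The stretch with the deepest coverage is shown, position 179 to 213 of Rn7s1 (chr12:70260460-70260494, plus strand), with capitals where coverage was at least 50% of the maximum.
Rn7s1 179 to 213: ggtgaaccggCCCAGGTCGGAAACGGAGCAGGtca
Reads that began in the window from 181 to 240 numbered 779 and 649, 0.921-fold in siSrf2. Reads that began from 1 to 60 (53 and 157, 3.27-fold) and from 121 to 180 (180 and 339, 2.08-fold) were more frequent in siSrf2. By the reads of both libraries together, the most used start was position 145, with 51 and 147 reads (3.19-fold). It held that rank through siSrf2, where it is high. In siSrf1 other starts had more reads, such as position 195 with 80 reads (54 in siSrf2).

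**Figure D5:**
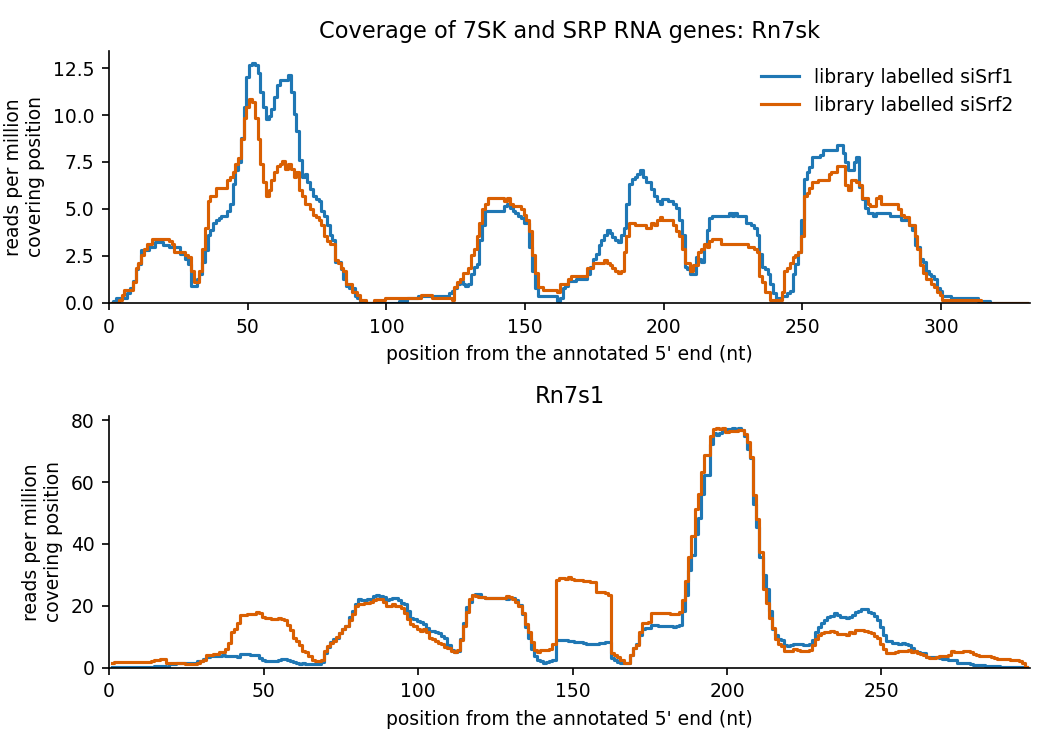
Reads, in RPM, that cover each position of Rn7sk and Rn7s1, counted from the annotated 5′ end, 1 line per library. Coverage of Rn7s1 peaks at 77.6 RPM in both libraries, near position 200, and Rn7sk shows no block at either end.

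The other structured RNAs were near the floor of detection. RNase P RNA, the RNA of the enzyme that trims the 5′ end of tRNA precursors, had 33 reads in each library. Vault RNA had 7 and 27 reads, 4.26-fold more in siSrf2 (1.81 to 11.6), and RNase MRP RNA, which acts in rRNA maturation, had 3 and 11 (4.05-fold, 1.07 to 22.6). Terc, the template RNA of telomerase, had 0 reads in both, for which a floor of 3 reads in each library is used here in place of an interval. Bc1 is no misc_RNA gene of the annotation used and was not analysed here. The remaining misc_RNA genes had 127 and 487 reads, 4.24-fold more in siSrf2 (3.48 to 5.19), with a median of 21854 genome matches per insert. None of these reads came from inserts whose matches all lay in misc_RNA genes, against 99.2% for Y3, so they cannot be assigned to a structured RNA. Antisense reads of the whole class were few, 43 and 91.

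Single inserts were compared by a size rule: at least 20 reads over both libraries, at least 2-fold apart, and the whole interval on 1 side. Of 56 misc_RNA inserts tested, 20 were past the rule, and all 20 were higher in siSrf2. With TMM, 13 were past it as higher in siSrf2 and 5 as higher in siSrf1. In RPM, of all 18847 inserts tested, 13.6% were past it as higher in siSrf2 and 6.28% as higher in siSrf1. Without inserts that match a miRNA hairpin the shares were 13.4% and 6.58%. No share over all inserts was computed with TMM or with another read minimum, so those counts have no background beside them. All 7 Y3 inserts tested were past the rule in RPM and 6 of 7 with TMM (9 of 11 with at least 10 reads). In RPM the others past it were 3 of 12 Y1 inserts, 4 of 27 SRP RNA inserts, 2 of 3 of the remaining genes, 1 of 4 that matched several types and all 3 inserts of 7SK copies. The inserts of 1 RNA overlap and are no independent observations. The median log2 ratio (siSrf1 minus siSrf2) was -2.83 for Y3, -0.68 for Y1, -0.06 for SRP RNA and 0.02 for all inserts tested. Of the Y1 inserts, 84 to 106 had 182 and 310 reads (1.88-fold) and 1 to 20 had 143 and 125 (0.966-fold), both short of the rule. The SRP RNA insert from 145 to 162 had 40 and 132 reads (3.65-fold).

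As a check of the cell type, inserts that begin as miR-499-5p, a miRNA of striated muscle, had 9508 and 9056 RPM. Those of miR-208a-3p, made from an intron of Myh6, had only 29 and 28 reads (3.74 and 3.99 RPM). The other miRNA counted, miR-451a, had more, 96 and 85 reads (12.4 and 12.1 RPM). Inserts of 18 to 25 nt made up 52.0% of 14911499 reads in siSrf1 and 48.3% of 14518157 in siSrf2.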

How the data were processed

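The authors deposited, for each library, a read count for every distinct sequence of 36 nt with the adapter still present. Per the labels, TRIzol RNA went through the Illumina small RNA protocol and was sequenced on a Genome Analyzer. Which aligner, build and read filters the authors used is not given in the sources used here.

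The adapter was found by its first 8 nt without mismatch, or by at least 4 nt at the read end. Inserts of 18 to 25 nt were matched to genes cut from NCBIM37 by GENCODE vM1 (Python 3.11.15, numpy 2.4.6, pandas 2.3.3, numba 0.67.0). A gene's type came from its name, or from the principal gene with which it shared the most 15-mers (at least 10), and inserts of several types were kept apart. Of the 9 principal genes, 7 had the same coding neighbours in RefSeq GRCm38.p6, used for names and order only. Reads were scaled to all inserts of 18 to 25 nt. Ratios carry exact binomial intervals conditional on the sum of both counts, shares Clopper-Pearson intervals and odds ratios conditional intervals (scipy 1.17.1). Folds are siSrf2 over siSrf1. Alternative scalings used edgeR 4.0.16 and DESeq2 1.42.0 factors over 261 miRNA hairpins, with no test. Structures were predicted with RNAfold 2.7.2. The size rule was tested on simulated counts of the libraries, drawn with counting error alone. It called 1.64% of 18647 unchanged inserts, 96 of 100 changed 3-fold and all 100 changed 6-fold. The simulation held no other variation between libraries, so it gives no rate of false calls for the real libraries. A first limit of 1% on calls among unchanged inserts was not met and was replaced, after that run, by the 5% that a 95% interval leaves out, and the size rule was kept.

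Named inserts were the 3 most read of each type with at least 20 reads, and those past the size rule. The members and lists were chosen with earlier results of these data known. The excluded classes removed 1 insert with 1 read.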

Additional observations from a re-analysis of the deposited data

Results flagged for a closer look

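Reads outside the lengths that define the set also matched these RNAs, above the 3 reads that a count of 0 allows. Inserts of 26 to 28 nt had 104 reads in siSrf1 and 440 in siSrf2 on Rny1, 15 and 59 on Rny3, and 24 and 29 on Rn7s1. On Rny1, 94 and 429 of them lay on the 3′ side, 5.04-fold more in siSrf2 (4.03 to 6.37), against 10 and 11 on the 5′ side. The most read were Rny1 84 to 110 (27 nt, 36 and 223 reads) and 84 to 109 (26 nt, 49 and 180 reads). These reach closer to the annotated 3′ end than most of the 3′ fragments counted above. Inserts of 15 to 17 nt had 119 and 96 reads on Rny1, 10 and 13 on Rny3, 291 and 237 on Rn7sk, and 1068 and 972 on Rn7s1.

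Inserts that began as an exact fragment and ended in 1 to 3 bases that do not match the gene were also present. They had 95 and 189 reads on Rny1, 23 and 60 on Rny3, 96 and 112 on Rn7s1, and 23 and 21 on Rn7sk. On Rny1 the added bases were only A in 61.1% of these reads in siSrf1 and 65.1% in siSrf2, against 8.33% and 15.2% on Rn7s1. Reads without adapter, 36 nt long, matched none of Rny1, Rny3, Rn7sk and Rn7s1, and 7 and 8 of them matched other misc_RNA genes.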

How the results depend on the processing

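No paired analysis was possible because each label has 1 library. Of 200 values under alternatives, 136 stayed within the 95% interval of the value reported (or, for counts, within 1.5 times), 57 moved, and 7 changed sign from a value whose interval lay on 1 side of 0. A further 7, of RNase P RNA and other Y copies, changed sign from a value whose interval spanned 0 and are counted among the 136. The cause was not tested. Values are log2 ratios, siSrf1 minus siSrf2, unless stated. The settings for 18 to 20 nt and 23 to 25 nt, and those of Rn7sk on its own, were chosen after seeing the data.

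All fragments together (-0.75) gave -0.83 per miRNA read, -0.64 per read of the file, -0.31 with TMM, -0.32 with size factors, -0.87 for 20 to 24 nt, -0.64 with 1 mismatch, -0.87 without sequences seen once, -0.66 where all genome matches lay in misc_RNA genes, -0.62 for principal genes, -0.61 without the most frequent insert, -0.33 for 18 to 20 nt and -1.36 for 23 to 25 nt. Y1 (-0.61) gave -0.18 with TMM, -0.19 with size factors, -0.80 for 16 to 28 nt, -0.40 with 1 mismatch, -0.88 for 23 to 25 nt, and changed sign to 0.013 for 18 to 20 nt. Y3 (-2.63) gave -2.19 with TMM, -2.20 with size factors, -2.37 with 1 mismatch, -2.38 without its most frequent insert and -1.17 for 18 to 20 nt, and kept its sign in every setting run.

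7SK (-0.44) gave -0.0013 with TMM, -0.013 with size factors, -0.14 for 20 to 24 nt and -0.80 without sequences seen once. It changed sign to 0.034 without inserts that match a miRNA hairpin, 0.25 where all genome matches lay in misc_RNA genes, 0.18 for Rn7sk alone and 0.11 for 23 to 25 nt. Inserts that match Rn7sk (0.18) gave 0.62 with TMM and 0.61 with size factors. SRP RNA (-0.19) gave -0.083 per read of the file, -0.055 for 18 to 20 nt and -0.68 for 23 to 25 nt, and changed sign to 0.25 with TMM and 0.24 with size factors. The remaining genes (-2.08) gave -1.64 with TMM, -1.65 with size factors, -2.39 for 20 to 24 nt, -3.00 without sequences seen once, -2.39 without miRNA hairpin matches, -1.70 for 18 to 20 nt and -3.19 for 23 to 25 nt.

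Inserts past the size rule as higher in siSrf2 (20 of 56) numbered 35 of 120 with at least 10 reads, 11 of 20 with at least 50, and 13 of 56 with TMM. Those higher in siSrf1 (0) numbered 1 with 10 reads and 5 with TMM. Of the Y3 inserts (7 of 7), 9 of 11 were past it with 10 reads, 4 of 4 with 50 and 6 of 7 with TMM. The share over all inserts was not computed for these alternatives. The share of Rny1 reads at position 1 was 59.7% in siSrf1 with 1 mismatch, and in siSrf2 39.7% for 16 to 28 nt and 53.1% with 1 mismatch. That of Rny3 was 72.1% in siSrf1 with 1 mismatch, and in siSrf2 88.3% for 16 to 28 nt and 88.6% with 1 mismatch. For 16 to 28 nt the share of the main length in siSrf1 and siSrf2 was 19.6% and 21.7% for Rny1 (23 nt), 15.4% and 16.2% for Rn7sk (18 nt), and 15.5% and 17.7% for Rn7s1 (18 nt), and 52.4% in siSrf2 for Rny3 (24 nt). Depth limits vault, RNase MRP, RNase P and other Y RNAs, whose intervals span most settings.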

Other observations

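A set of inserts begins like Rny1 but carries A12T (positions from 1 at the 5′ end of Rny1, the base of Rny1 first). They had 960 reads in siSrf1 (124 RPM) and 721 in siSrf2 (103 RPM), 0.830-fold in siSrf2 (0.752 to 0.915). In siSrf1 they outnumbered the 590 exact reads that begin at position 1 of Rny1. Of those with 20 nt or more, 98.4% in either library also carried A20G. The 8 most read of these inserts had 0 exact matches in the NCBIM37 genome, and their sequence is not printed. Their fold showed no rise with length: it was 0.798 at 18 nt and 0.822 at 24 nt, where the exact 5′ fragments of Y1 stood at 1.01 and 2.95. They are no members of the set, and the source of this sequence was not tested.

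Inserts that differ from Rny3 by the single substitution C94T had 42 reads in siSrf1 and 12 in siSrf2, against 17 and 56 exact reads of the 3′ side. That fold, 0.316 (0.151 to 0.611), is opposite to the 3.64 of the exact reads. Whether the C94T inserts come from Rny3 was not tested, and their exact matches in the genome were not counted. Both substitutions were found after the 1-mismatch alternative had moved the Y values.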
